A study of Homo sapiens with 6 samples.

Results

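Metallothioneins are small, cysteine-rich proteins that bind zinc and copper, and they are the main buffer of free zinc in the cytosol. Their genes, and SLC30A1, which encodes the zinc exporter ZnT1 of the plasma membrane, are activated by the zinc-sensing transcription factor MTF1 through short promoter elements called metal response elements (MREs). MT2A is also a classical target of glucocorticoids and of AP-1. The transcripts described here are those of 6 metallothionein genes (MT1E, MT1F, MT1G, MT1M, MT1X and MT2A), the sensor MTF1 and the exporter SLC30A1, which are 8 of the 27216 rows of the expression matrix and were picked by symbol.

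The samples were NCI-H1975 cells, an established EGFR-mutated human non-small cell lung cancer line. One group, called parental here, was labelled as osimertinib (Osi, an inhibitor of mutant EGFR) at 0 h. The other, called adapted, was labelled as 72 h of Osi at 1000 nM, and dying cells had been washed away with PBS, so its RNA came from the cells that remained. Each group had 3 samples, and the matrix columns of the parental group are named DMSO, so whether those cells received solvent is not given in the sources used here. Nothing in the labels says that the 3 samples of a group came from separate cultures, and the p-values then measure only the spread between these samples, which may be technical.

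FPKM, fragments scaled to the length of the transcript and the size of the library, was taken as the unit, on the scale log2(FPKM + 1). The matrix states no unit, so comparisons of level between genes, given here in FPKM, hold as far as the values are scaled by length. According to the labels the RNA had been treated with RNase R, which degrades linear RNA, before the libraries were made, and the effect of that step on these levels was not tested. No read counts were analysed here and the depth of each sample is unknown. All 7 epithelial markers were abundant in both groups, although KRT7 rose by 1.07 in log2 units and KRT19, KRT18 and KRT8 fell by 0.75, 0.57 and 0.28 (the KRT8 call was lost in 9 of 19 alternative fits). Their summed level was 4251 to 4287 FPKM in parental and 4022 to 4330 FPKM in adapted samples. Of 6 fibroblast markers only COL1A1 was high enough to test. Its mean rose from 2.02 to 3.14 on the log2(FPKM + 1) scale, and from 3.06 to 7.86 in FPKM. The summed fibroblast level was 3.04 to 3.17 FPKM in parental and 8.60 to 9.33 FPKM in adapted samples. None of 5 immune or 4 endothelial markers passed the filter. Of the endothelial markers, CDH5 was at 0.12 to 0.20 FPKM in parental and 1.28 to 3.22 FPKM in adapted samples, and PECAM1 was at 0.994 to 1.63 FPKM in parental and 0.053 to 0.076 FPKM in adapted samples, while the summed level was 1.13 to 1.88 and 1.49 to 3.50 FPKM. The summed immune level was 0.66 to 1.15 FPKM in parental and 0.11 to 0.26 FPKM in adapted samples, with CD3E listed at 0 throughout. The part of these markers in the results was not tested. Adapted replicate 1 stood apart from the other two adapted samples: its correlation with them across rows was 0.991, against 0.996 between them, and it was the farthest of the 3 in 6222 of the 12656 rows tested. Its correlation with the parental samples was 0.9725 to 0.9727, against 0.9632 to 0.9636 for adapted replicates 2 and 3. Values without adapted replicate 1 are therefore given beside the results below. In bulk RNA, fewer cells of a type and less RNA per cell cannot be told apart.

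The 6 metallothionein members lie in 1 cluster of 76.0 kb on chromosome 16 (GRCh38, GENCODE 29), from the start of MT2A at 56608199 to the end of MT1X at 56684196. Of these, MT1G is on the minus strand and the other members are on the plus strand. MT1A, which is no member, lies between MT1M and MT1F. MTF1 is at 37809567 to 37859620 and SLC30A1 at 211571568 to 211578742, both on the minus strand of chromosome 1.

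The coding sequences show how alike these genes are, which bears on how far reads can be assigned to single members. Each of the 6 members and MT1A has a coding sequence of 186 bases in 3 exons, with 20 cysteine codons among 62 codons including the stop. Any pair was identical at 88.7% to 95.2% of positions. MT2A and MT1X differed at 14 positions and shared an unbroken identical run of 63 bases, and MT2A and MT1F differed at 16 positions with a longest run of 32 bases. MT2A and MT1G, the closest pair, were identical at 95.2% of positions. The sequences below run 5′ to 3′ from start to stop codon, are taken from the GENCODE 29 transcripts, and carry in capitals each base that differs from MT2A.

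MT2A: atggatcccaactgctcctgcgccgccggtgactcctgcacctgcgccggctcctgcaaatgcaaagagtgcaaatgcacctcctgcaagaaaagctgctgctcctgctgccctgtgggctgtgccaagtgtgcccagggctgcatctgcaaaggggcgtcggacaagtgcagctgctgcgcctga
MT1X: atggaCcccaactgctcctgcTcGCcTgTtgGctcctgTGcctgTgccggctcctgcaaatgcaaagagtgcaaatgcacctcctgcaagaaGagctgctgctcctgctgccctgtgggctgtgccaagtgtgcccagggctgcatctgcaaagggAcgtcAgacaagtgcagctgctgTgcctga
MT1F: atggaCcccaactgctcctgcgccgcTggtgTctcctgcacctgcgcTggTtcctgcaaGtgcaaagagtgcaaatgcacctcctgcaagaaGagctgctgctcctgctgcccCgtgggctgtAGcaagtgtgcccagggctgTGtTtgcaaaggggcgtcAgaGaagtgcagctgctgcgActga
MT1G: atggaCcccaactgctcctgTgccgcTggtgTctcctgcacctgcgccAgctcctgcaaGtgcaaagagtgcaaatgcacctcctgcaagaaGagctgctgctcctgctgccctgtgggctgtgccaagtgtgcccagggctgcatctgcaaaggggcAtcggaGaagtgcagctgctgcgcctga

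In the MT1X line most capitals stand in the first part of the sequence, and the run identical to MT2A is the longest stretch without a capital. How the quantification assigned reads shared by these genes is not given in the sources used here. The split between single metallothioneins is therefore uncertain, and the summed level of the family is given beside it.

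Promoters were available for 4 of the 8 members (RefSeq, GRCh38.p14), each as 250 bases before and 50 bases after the annotated start, and they are shown for the number of MTF1 elements that each holds. Starts in RefSeq and GENCODE differ for some of them. The MRE core was searched as TGCACNC or TGCGCNC, AP-1 as TGANTCA and the TATA box as TATAAA, on both strands, and MRE cores are in capitals. No match overlapped a match of another motif. The windows are chr16:56608334-56608633 (plus strand) for MT2A, chr16:56682220-56682519 (plus strand) for MT1X, chr1:211579112-211579411 (minus strand) for SLC30A1 and chr1:37859543-37859842 (minus strand) for MTF1.

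MT2A: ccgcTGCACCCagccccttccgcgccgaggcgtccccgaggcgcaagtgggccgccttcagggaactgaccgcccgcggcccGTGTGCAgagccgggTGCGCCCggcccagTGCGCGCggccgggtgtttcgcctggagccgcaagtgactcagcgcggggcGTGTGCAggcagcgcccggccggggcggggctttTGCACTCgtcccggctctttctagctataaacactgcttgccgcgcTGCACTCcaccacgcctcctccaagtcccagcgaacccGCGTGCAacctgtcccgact
MT1X: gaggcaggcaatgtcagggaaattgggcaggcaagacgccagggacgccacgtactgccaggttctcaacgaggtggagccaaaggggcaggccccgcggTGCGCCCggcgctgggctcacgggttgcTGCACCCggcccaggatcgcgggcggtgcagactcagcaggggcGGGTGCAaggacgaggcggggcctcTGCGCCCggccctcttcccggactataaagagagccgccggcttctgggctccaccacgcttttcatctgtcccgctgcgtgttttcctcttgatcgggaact
SLC30A1: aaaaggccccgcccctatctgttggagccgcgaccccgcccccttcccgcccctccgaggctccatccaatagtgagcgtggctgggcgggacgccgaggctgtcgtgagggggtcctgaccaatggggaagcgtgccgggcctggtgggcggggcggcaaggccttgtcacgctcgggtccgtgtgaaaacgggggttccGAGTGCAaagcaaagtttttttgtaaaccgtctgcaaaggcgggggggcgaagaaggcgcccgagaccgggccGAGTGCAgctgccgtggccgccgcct
MTF1: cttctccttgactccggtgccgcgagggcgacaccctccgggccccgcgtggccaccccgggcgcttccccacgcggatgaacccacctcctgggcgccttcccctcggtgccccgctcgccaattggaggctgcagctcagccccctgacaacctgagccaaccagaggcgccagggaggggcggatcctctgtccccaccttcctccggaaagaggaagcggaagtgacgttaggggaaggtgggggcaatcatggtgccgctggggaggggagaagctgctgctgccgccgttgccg

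The MT2A window held 8 MRE cores, spread from base −246 to base +31 counted from the start, with 1 AP-1 match at −104 and a TATA match at −29. The MT1X window held 4 MRE cores between −150 and −53 and a TATA match at −30. SLC30A1 held 2 cores, at −49 and +25, and no TATA match, and MTF1 held none of the 3 motifs. Among 34943 RefSeq promoters of this length, 29.5% had at least 1 MRE core, 8.58% at least 2, 0.598% at least 4 and 0.02% at least 8. AP-1 was found in 7.72% and the TATA match in 11.6%. A match of letters is a description and does not show binding, and the absence of a match in MTF1 says only that these letters are not in its window.

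**Figure D1:**
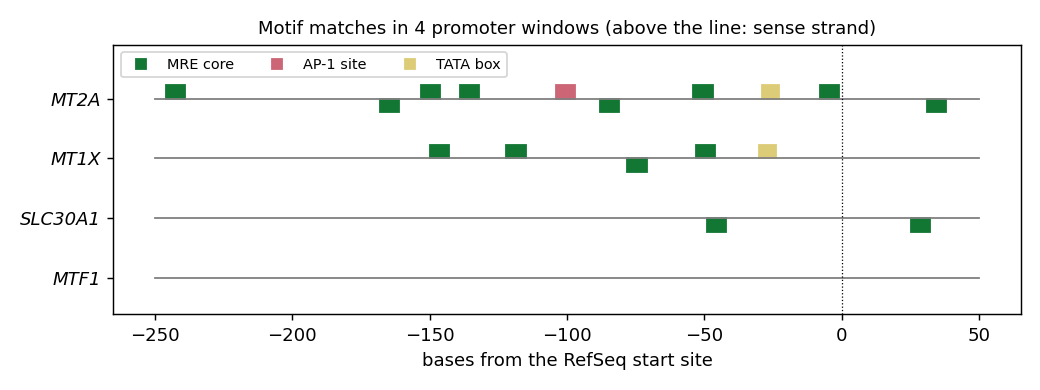
Positions of MRE, AP-1 and TATA matches in the promoters of MT2A, MT1X, SLC30A1 and MTF1, in bases from the RefSeq start with matches on the gene's own strand above the line and those on the other strand below it. The 8 MRE cores of MT2A and 4 of MT1X stand against 2 in SLC30A1 and 0 in MTF1.

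Of the members, SLC30A1 was the one that changed past the threshold in the adapted cells, and it rose. MT2A, the abundant metallothionein, was lower in adapted replicates 2 and 3 but not in replicate 1, MT1X and MT1F had higher means, and MTF1 differed little. 5 of the 8 members passed the filter (mean of at least 1 over the 6 samples) and were tested with limma across all 12656 rows that did. 1 of the 5 was higher and 0 were lower at an adjusted p under 0.05, while 30.7% of all rows tested were higher, 26.2% lower and 56.9% called in either direction. The groups did not overlap for 2 of the 5, against 66.3% of all rows. Without adapted replicate 1 the count was 1 higher and 1 lower. Calls over all 12656 rows also rose in that fit, from 7202 to 8370 (4474 higher and 3896 lower). An exact permutation test of 3 samples against 3 cannot go below p = 0.1, so none is given for single genes.

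SLC30A1, which moves zinc out of the cytosol across the plasma membrane, stood at 8.34, 7.57 and 7.26 FPKM in parental samples and 11.9, 14.2 and 10.9 FPKM in adapted ones. All 3 adapted samples were above all 3 parental samples. On the log2(FPKM + 1) scale the mean went from 3.12 ± 0.09 to 3.73 ± 0.18 (SD, n = 3 each), a change of 0.60 (SE 0.10, 95% interval 0.36 to 0.85, adjusted p = 0.0021, limma). In FPKM the ratio of means was 1.59. The change was called in every one of 19 alternative fits and ranged from 0.51 to 0.68 when 1 sample was left out.

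MT2A, the isoform that carries most metallothionein mRNA in many epithelial cells, was at 200.1, 185 and 202 FPKM in parental samples and at 225, 88.5 and 108 FPKM in adapted ones. The parental samples lay close together, and adapted replicate 1 was above all of them while replicates 2 and 3 were below all of them. The log2 mean was 7.62 ± 0.07 in parental and 7.02 ± 0.71 in adapted samples (SD, n = 3 each), a difference of −0.59 (SE 0.31, 95% interval −1.32 to 0.13) that did not pass (adjusted p = 0.137, limma). Without adapted replicate 1 the difference was −0.995 with an adjusted p of 6.76e-05. Adapted replicate 1 was 1.20 above the mean of the other two in log2 units, and 0.853% of the rows tested had a gap at least as large in either direction. By mean FPKM the gene ranked 230 of 27216 rows in parental and 336 in adapted samples.

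MT1X is another zinc-inducible metallothionein. It was measured at 10.4, 12.4 and 14.5 FPKM in parental samples and at 23.9, 10.4 and 18.2 FPKM in adapted samples. Replicates 1 and 3 of the adapted group were above the parental range and replicate 2 was just below it. The log2 mean was 3.74 ± 0.22 in parental and 4.14 ± 0.58 in adapted samples, a difference of 0.40 (SE 0.27, adjusted p = 0.237, limma) that passed only when adapted replicate 2 was left out (0.72, adjusted p = 0.0142). Without adapted replicate 1 it was 0.15 (adjusted p = 0.572, limma).

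MT1F was at 3.59, 3.01 and 3.10 FPKM in parental samples and at 6.13, 3.88 and 3.90 FPKM in adapted samples. The groups did not overlap, with adapted replicate 1 again the highest. The log2 mean was 2.08 ± 0.11 in parental and 2.47 ± 0.31 in adapted samples. The difference was 0.39 (SE 0.16, 95% interval 0.03 to 0.76) and missed the threshold (adjusted p = 0.0651, limma). It passed when samples were scaled to 1 common sum that leaves out the genes of the mitochondrial genome (0.43, adjusted p = 0.0400). Without adapted replicate 1 the difference was 0.21 (adjusted p = 0.0561, limma).

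The remaining metallothionein members were not tested. MT1G and MT1M were listed at 0 in all 6 samples, and MT1E was listed at 0 in 4 of them, with 0.03 FPKM in parental replicate 3 and 0.19 FPKM in adapted replicate 1. Of the list of 15 other metallothionein genes and pseudogenes, 6 were in the matrix. MT1B, MT1H, MT1HL1, MT3 and MT4 were listed at 0 in every sample. MT1A alone of these was tested, and its log2 mean was 1.22 ± 0.12 in parental and 1.34 ± 0.28 in adapted samples (difference 0.13, adjusted p = 0.502, limma).

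MTF1, the sensor, had 3.61, 3.89 and 3.60 FPKM in parental samples and 3.45, 3.89 and 3.93 FPKM in adapted ones. The 2 groups overlapped. The log2 difference was 0.02 (95% interval −0.17 to 0.20, adjusted p = 0.879, limma), an interval that holds changes of either sign. Its transcript level says nothing of its activity, which depends on zinc binding and was not measured.

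The levels of the members were far apart. In parental samples MT2A, at 196 ± 9.38 FPKM, was followed by MT1X at 12.4 ± 2.05, SLC30A1 at 7.72 ± 0.56, MTF1 at 3.70 ± 0.16 and MT1F at 3.23 ± 0.31 FPKM (mean ± SD, n = 3 each). In adapted samples the order was MT2A at 140 ± 74.2, MT1X at 17.5 ± 6.82, SLC30A1 at 12.3 ± 1.70, MT1F at 4.64 ± 1.29 and MTF1 at 3.75 ± 0.27 FPKM. MT1F and MTF1 exchanged places, and in the adapted group their values lay within 1 SD of MT1F of each other. MT1X and SLC30A1 also lay within 1 SD of MT1X of each other there.

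The summed level of all metallothionein rows was 215, 202 and 221 FPKM in parental samples and 258, 104 and 131 FPKM in adapted samples. Adapted replicate 1 was thus above every parental sample and the other two were far below. The ratio of adapted to parental means was 0.773, and 0.553 without adapted replicate 1. These sums carry no test.

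The make-up of the family differed more evenly than its sum. MT2A made up 92.9%, 91.6% and 91.5% of the summed FPKM in parental samples and 87.5%, 85.3% and 81.8% in adapted samples, so that the groups did not overlap (92.0 ± 0.77% against 84.9 ± 2.87%, SD, n = 3 each). The share of MT1X was 5.84 ± 0.90% in parental and 11.1 ± 2.46% in adapted samples. The share of MT1F was 1.52 ± 0.13% and 3.03 ± 0.68%. The groups did not overlap for either share. For MT1A they overlapped, at 0.629% and 1.03%. Shares of a whole move against each other, so these values are not independent, and they carry no test. For the levels of single genes, 66.3% of all rows tested had groups that did not overlap.

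As ratios within a sample, MT2A exceeded MT1X by 19.2, 14.9 and 13.9 in parental samples and by 9.41, 8.53 and 5.90 in adapted samples. MT2A exceeded MT1F by 55.7, 61.4 and 65.2 in parental samples and by 36.8, 22.8 and 27.6 in adapted ones. All 3 adapted samples were below all 3 parental samples for both ratios, adapted replicate 1 included. The same held for MT2A to MT1A, at 150, 122 and 177 in parental and 119, 85.7 and 60.6 in adapted samples. The ratio of MT1X to MT1F did overlap, with 2.90, 4.11 and 4.68 in parental samples and 3.91, 2.67 and 4.67 in adapted samples. A ratio within a sample shows unequal change and not which of the genes changed. The ratios with MT2A share that gene and restate the shares above, so they are not separate results, and they carry no test. How often ratios of other gene pairs separate the groups was not tested.

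**Figure D2:**
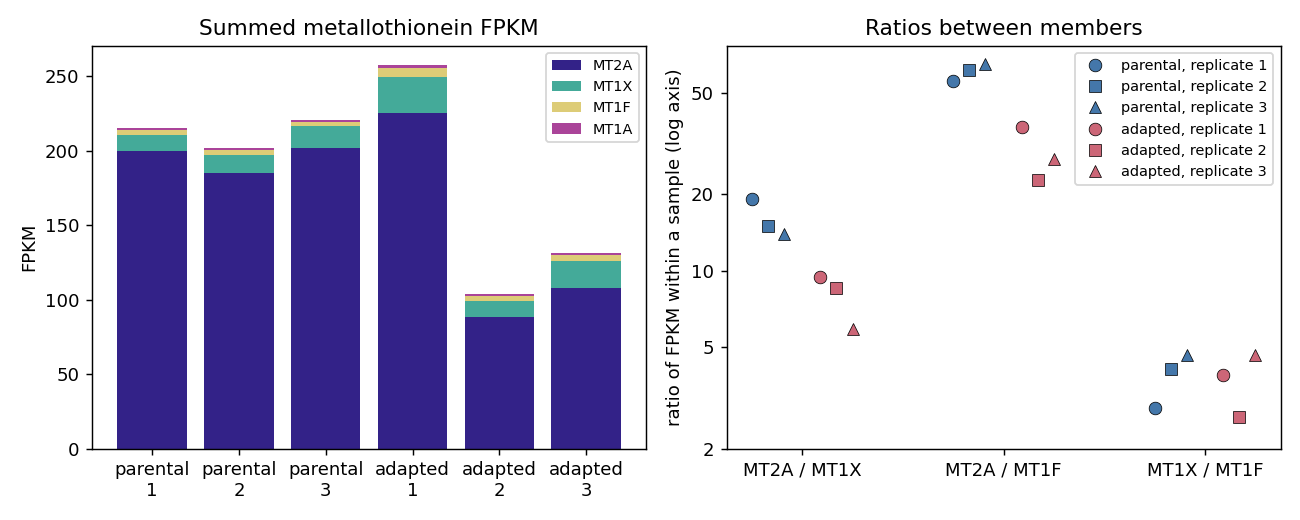
Left, FPKM of MT2A, MT1X, MT1F and MT1A, stacked for each of the 6 samples. Right, ratios of FPKM within a sample (MT2A to MT1X, MT2A to MT1F and MT1X to MT1F) on a log axis. The sum in adapted samples spans 104 to 258 FPKM around the parental 202 to 221 FPKM. The ratios of MT2A to MT1X and to MT1F are lower in all 3 adapted samples, and those of MT1X to MT1F overlap.

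Against the parental mean, on the log2 scale, adapted replicates 1, 2 and 3 were at 0.21, −1.13 and −0.86 for MT2A, at 0.91, −0.23 and 0.53 for MT1X and at 0.75, 0.21 and 0.21 for MT1F. All 3 metallothioneins were at their highest in adapted replicate 1. SLC30A1 gave 0.56, 0.80 and 0.45, with its highest value in replicate 2, where MT2A and MT1X were lowest. MTF1 gave −0.08, 0.06 and 0.07.

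The 3 rows whose pattern over the 6 samples was nearest to that of MT2A, among the 7573 other rows with a gene name and a mean of at least 3 and measured by the root mean square difference after subtracting each parental mean, were JCAD at 0.150, CAMK2N1 at 0.157 and PFN2 at 0.172 log2 units. JCAD stood at 4.85, 4.82 and 4.77 in parental and 4.83, 3.96 and 3.999 in adapted samples. JCAD was within the parental range in adapted replicate 1 and below it in replicates 2 and 3. Its likeness to MT2A follows from the way it was picked. MT2A itself was above every parental sample in adapted replicate 1.

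Other zinc exporters were compared to see whether SLC30A1 moved alone. Of 10 further exporters (SLC30A and TMEM163 genes), 5 were tested, 0 were higher and 1 was lower. Over all rows tested, 30.7% were higher and 26.2% lower. The median log2 difference of the 5 exporters was −0.03 against 0.03 over all rows. The exporter that fell was TMEM163, a zinc efflux protein of plasma membrane and vesicles. It was at 8.58, 7.51 and 8.41 FPKM in parental samples and at 1.34, 0.27 and 0.36 FPKM in adapted ones, a log2 change of −2.52 (SE 0.22, adjusted p = 1.004e-04, limma). SLC30A5, SLC30A6 and SLC30A7, which load zinc into the secretory pathway, and SLC30A9 of mitochondria had differences from −0.04 to 0.12 and were not called. SLC30A2, SLC30A3, SLC30A4, SLC30A8 and SLC30A10 were below the filter, with no value above 0.69. Of these, SLC30A4 was at 0.51, 0.61 and 0.48 FPKM in parental and 0.18, 0.22 and 0.19 FPKM in adapted samples. In an alternative fit with no filter it was called lower (−0.36, adjusted p = 0.0024, limma), as were 3993 of the 23902 rows in that fit.

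Zinc importers of the ZIP family bring zinc into the cytosol from outside or from organelles. Of 14 importers, 11 were tested, 6 were higher and 2 lower, beside 30.7% higher and 26.2% lower over all rows tested. The median log2 difference was 0.38 against 0.03 over all rows. Without adapted replicate 1, 7 were higher and 2 lower (median 0.43), beside 4474 and 3896 of the 12656 rows tested. Whether importers and exporters differ as groups was not tested. SLC39A4, the intestinal zinc importer, was at 3.21, 3.39 and 3.14 FPKM in parental and 4.93, 11.1 and 8.72 FPKM in adapted samples (log2 change 1.06, SE 0.23, adjusted p = 0.0067, limma). SLC39A13, of intracellular vesicles, rose by 0.99 (SE 0.10, adjusted p = 1.57e-04, limma). SLC39A6, a plasma membrane importer, rose by 0.73, and SLC39A9, SLC39A7 and SLC39A3 rose by 0.39, 0.39 and 0.38. SLC39A10, a plasma membrane partner of SLC39A6, fell by 0.47 (adjusted p = 0.0018, limma), and SLC39A8, which also carries manganese and cadmium, fell by 0.41 (adjusted p = 0.0070, limma). SLC39A1, SLC39A11 and SLC39A14 were at 0.10, 0.06 and 0.03 and were not called.

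**Figure D3:**
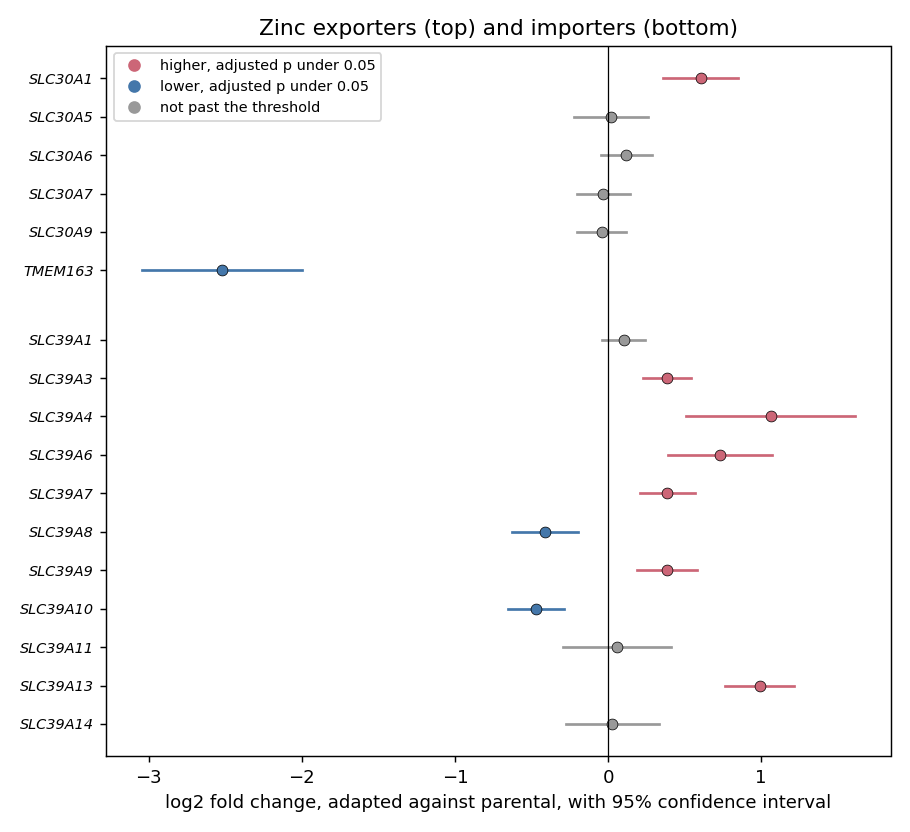
Log2 difference between adapted and parental samples for zinc exporters and importers that were tested, with 95% intervals from limma. SLC30A1 at 0.60 is the one exporter past the threshold on the right, TMEM163 at −2.52 is far to the left, and 6 of 11 importers lie to the right past the threshold.

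Copper handling genes were included because metallothioneins also hold copper. Of 13, 11 were tested, 4 were higher and 1 lower, beside 30.7% higher and 26.2% lower over all rows tested, with a median of 0.15. Without adapted replicate 1, 5 were higher and 2 lower (median 0.11), beside 4474 and 3896 of the 12656 rows tested. ATOX1, a cytosolic copper chaperone, rose by 0.50 (adjusted p = 0.0037, limma). SLC31A1, the high-affinity copper importer CTR1, fell by 0.45 (adjusted p = 7.6e-04, limma). COX19 was called higher at 0.25, and this call was lost in 5 of 18 alternative fits. COX17 and COX11, which deliver copper to cytochrome oxidase, were called higher at 1.28 and 0.68, but the adapted values of both carry a constant of 0.66 that sets them off the decimal grid of the matrix. With it subtracted COX17 was at 0.62 (adjusted p = 0.0058, limma) and COX11 at 0.02 (adjusted p = 0.903, limma). No metallothionein member, MTF1 or SLC30A1 carried such a constant.

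Genes that metals and oxidants induce along with metallothioneins moved in both directions. Of 14, 13 were tested, 4 were higher and 5 lower, against 30.7% and 26.2% of all rows, with a median of −0.21. Without adapted replicate 1 the counts were 4 and 5 (median −0.22), against 4474 and 3896 of the 12656 rows tested. HMOX1, heme oxygenase, was at 5.42, 4.91 and 4.31 FPKM in parental and 12.1, 10.3 and 12.02 FPKM in adapted samples (log2 change 1.09, SE 0.10, adjusted p = 1.09e-04, limma). HSPA1A and HSPA1B, near-identical copies of the inducible HSP70 gene whose split is uncertain, rose by 1.28 and 1.17, and DNAJB1, an HSP70 partner, rose by 0.32. The thioredoxin reductase TXNRD1, the quinone reductase NQO1, the cystine transporter SLC7A11 and the sulfiredoxin SRXN1 fell by 1.17, 0.998, 0.92 and 0.38. GCLC and GCLM, the subunits of the enzyme that starts glutathione synthesis, were at −0.15 and −0.21 and OSGIN1 at −0.25, and none of these passed. BAG3 fell by 0.27 in the main fit, and this call was lost in 7 of 19 alternative fits.

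Glucocorticoid-responsive genes were listed because MT2A is one of that class. Of 10, 9 were tested, 2 were higher and 6 lower, against 30.7% and 26.2% of all rows, with a median of −0.80. Without adapted replicate 1 the counts were 2 and 6 (median −0.59), against 4474 and 3896 of the 12656 rows tested. ERRFI1, a feedback inhibitor of EGFR, fell by 2.16, the transcription factor CEBPD by 1.77, the clock gene PER1 by 1.67 and the NF-κB inhibitor NFKBIA by 1.06. DUSP1, a MAPK phosphatase, rose by 0.57. TSC22D3, known as GILZ, was called higher at 0.19 with an adjusted p of 0.0494 (limma), and this call was lost in 9 alternative fits. FKBP5, the 1 tested gene of the list that was not called, was at 0.25 (adjusted p = 0.0561, limma). It was called in 3 of 19 alternative fits. Several of these genes also respond to growth factor signalling, and the part of either input in these values was not tested.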

How the data were processed

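RNA from 3 parental and 3 adapted NCI-H1975 samples was sequenced, and the authors deposited 1 matrix of log2 values for 27216 rows. No unit is stated. They were taken as log2(FPKM + 1), and their linear values sum to 375342 to 387753 per sample, which TPM would not. The submitters' processing notes name Bowtie2 2.1.0, STAR, edgeR and the build hg38 without roles, and the quantifier and annotation are not given in the sources used here. Depth is unknown, and no interval from counts is given.

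The study's methods name a test on read counts. Because the deposited log2 values are not counts, limma 3.58.1 in R 4.3.3 (lmFit, eBayes with trend) was fitted to the 12656 rows with a mean of at least 1, with Benjamini-Hochberg adjustment over them and a threshold of 0.05. The procedure was tested on simulated data in which 200 rows changed by 1 in log2 units. That is far fewer than the 7202 rows called here, so the simulation does not show how the procedure performs on these data. A fold change on this scale understates changes of low genes.

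Members and gene lists were chosen with earlier results of these data known. Named genes are the 8 members, up to 4 rising and 4 falling genes per list (others from a list are named with their values), and the 3 rows nearest to MT2A. Transcripts came from GENCODE 29 (GRCh38) and promoters from RefSeq (GRCh38.p14). 147 rows with a constant added in 1 group were kept. Subtracting the constants was an alternative chosen after seeing the data. The other alternatives concerned pseudocount, filter, scaling, variance model, replicate block, rows tested, threshold and left-out samples.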

Additional observations from a re-analysis of the deposited data

How the results depend on the processing

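SLC30A1 stayed higher and past the threshold in all 19 alternative fits (0.51 to 0.68 in log2 units), apart from the rule that also asks for a log2 change of 1 or more in either direction. The number of members called was 1, and 2 with an equal sum without mitochondrially encoded genes (MT1F), 2 with the replicate block (MT1F, adjusted p = 0.0275, limma), 0 with the fold limit, and 1 to 2 when each sample was left out. The rows called numbered 7202, 4532 with a filter of a mean of at least 3 (fewer rows tested), 1328 with the fold limit, and 5763 to 8370 when each sample was left out. MTF1 was at 0.015 and turned to −0.037 with quantile normalization, −0.0046 when centred on the median, −0.0055 without adapted replicate 2 and −0.011 without adapted replicate 3 (−0.011 to 0.063 over the left-out samples), none of them near the threshold. MT2A ranged from −0.995 to −0.33, MT1X from 0.15 to 0.72 and MT1F from 0.21 to 0.48 when each sample was left out. The cause of these shifts was not tested.

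The replicate numbers did not pair the samples: same-numbered samples had correlations of deviations of −0.0509, −0.0309 and −0.0203, and none was closest to its own number. The replicate block gave 6761 rows called. The summed metallothionein ratio ranged from 0.553 to 0.915 when each sample was left out and the difference in MT2A share from −8.46 to −5.61 percentage points. With 3 samples a group and depth unknown, small changes such as those of MT1F, MT1A and MTF1 could not be resolved. Among the tested members the SE was largest for the abundant MT2A and MT1X (0.31 and 0.27) and smallest for MTF1 (0.08).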
